A study of Zea mays with 18 samples.

Results

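The genes described here encode the enzymes of the C4 cycle and the small subunit of Rubisco, 8 of the 76612 maize identifiers in the deposited table. They were chosen by identifier, not by a rule on their measured values, though earlier results of these data were known. The 8 are pep1 (GRMZM2G083841), ppdk1 (GRMZM2G306345), me3 (GRMZM2G085019), mdh6 (GRMZM2G129513), pck1 (GRMZM2G001696), a carbonic anhydrase gene (GRMZM2G121878) and the rbcS genes GRMZM2G098520 and GRMZM2G113033. The names of pck1 and of the carbonic anhydrase gene came with the choice, since RefSeq gives no symbol for them. RNA was sequenced from 2 tissues of the maize hybrid NN6306 grown in the field in Illinois in 2012, the ear inflorescence at the V16 leaf stage and the ear at silking (R1). Each tissue was taken from controls labelled wild type and from plants of the transgenic events 1 and 2, with 3 biological replicates a group and 18 libraries in all. Both events carry 1 copy of the Arabidopsis ATHB17 gene behind the rice actin promoter, which is active in most tissues, and make the truncated protein ATHB17Δ113, an HD-Zip II factor without part of its repression domain. The vector also held a glyphosate tolerance gene as selectable marker behind a rice actin promoter. Per the methods, where insect protection and glyphosate tolerance traits were present in the field study, event and control entries shared them. The 2 events are separate insertions in 1 genetic background, no special stress was applied to any group, and the transgene's own RNA was not analysed here.

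In maize leaves, C4 photosynthesis is divided between mesophyll and bundle sheath cells. Carbonic anhydrase and PEP carboxylase capture carbon in the mesophyll, the product travels as malate or aspartate to the bundle sheath, and decarboxylases release it there beside Rubisco. Ears are mainly sink organs supplied by the leaves, and relatives of several of these enzymes have other roles in non-photosynthetic cells, such as refilling the citric acid cycle and supplying reducing power in plastids.

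The table holds normalized counts, which are read counts scaled per library by the DESeq software. With the scaling undone, the recovered reads came to between 27293941 and 52655576 read assignments per library. A read adds an assignment for each transcript it was placed on, so these totals are larger than the number of reads placed. Levels are compared between samples and not between genes, because the counts are not divided by transcript length. Calls were made with limma, fitted to log2(normalized count + 1) of all identifiers in all 18 libraries, where the raw p did not exceed 0.0001, and fold changes are on that scale, with the standard error (SE) of the log2 value. The Benjamini-Hochberg adjustment ran over all identifiers of a comparison, and p-values measure the spread among samples that the labels call biological replicates. The tissues were separated by the first principal component, with 78.1% of the variance. Event 1 ear inflorescence replicate 1 and event 2 ear replicate 2 stood apart from their groups, and some of the results that rest on them are also given without them. The tissue fold changes within event 1 and within event 2 are given only with them. Over the 3 genotypes together, 14.3% of all identifiers were called higher in the ear and 14.7% lower. Among 8 meristem and young inflorescence markers, bd1, ra3 and ra1 were called lower in that comparison, while TD1 was called higher. ra1 had a mean of only 3.38 normalized counts and was at 0 in all 9 ear libraries. Within single genotypes 0 of the 8 were called. Among 4 floral organ markers, zmm6 and ZAG1 were called higher over the genotypes. Within single genotypes 1 of the 4 was called, in event 2 only.

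Most of the 8 genes were higher in the silking ear than in the younger ear inflorescence. In the control, 6 of the 8 were called higher and none lower, against 7.16% of all identifiers called higher. In event 1 the count was again 6, against 8.46%, and in event 2 it was 6, against 5.18%. Over the 3 genotypes jointly 7 were called higher, against 14.3%. All 8 genes had a mean of at least 10 normalized counts, and in a fit to the 39715 identifiers at that level the background rose to 13.3% for control, 15.2% for event 1, 9.52% for event 2 and 25% over the genotypes, with 5, 6, 6 and 7 of the 8 genes called in that order. The median log2 fold change of the 8 genes over the genotypes was 1.91, where that of all identifiers was -0.09. For 6 of the 8, all 9 ear libraries lay above all 9 ear inflorescence libraries, which held for 11.4% of all identifiers, and the exceptions were me3 and carbonic anhydrase. With limma fitted to only the 6 libraries of a comparison, 1 was called in control, 3 in event 1 and 0 in event 2, all with log2 fold changes unaltered. In event 2 the count dropped to 3 without ear inflorescence replicate 2 and to 3 without ear replicate 3, where the calls of ppdk1 and both rbcS genes were lost. The share of all identifiers called is not given for the 6-library fits or for those with 1 library left out. The counts from these fits therefore have no background beside them.

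**Figure D1:**
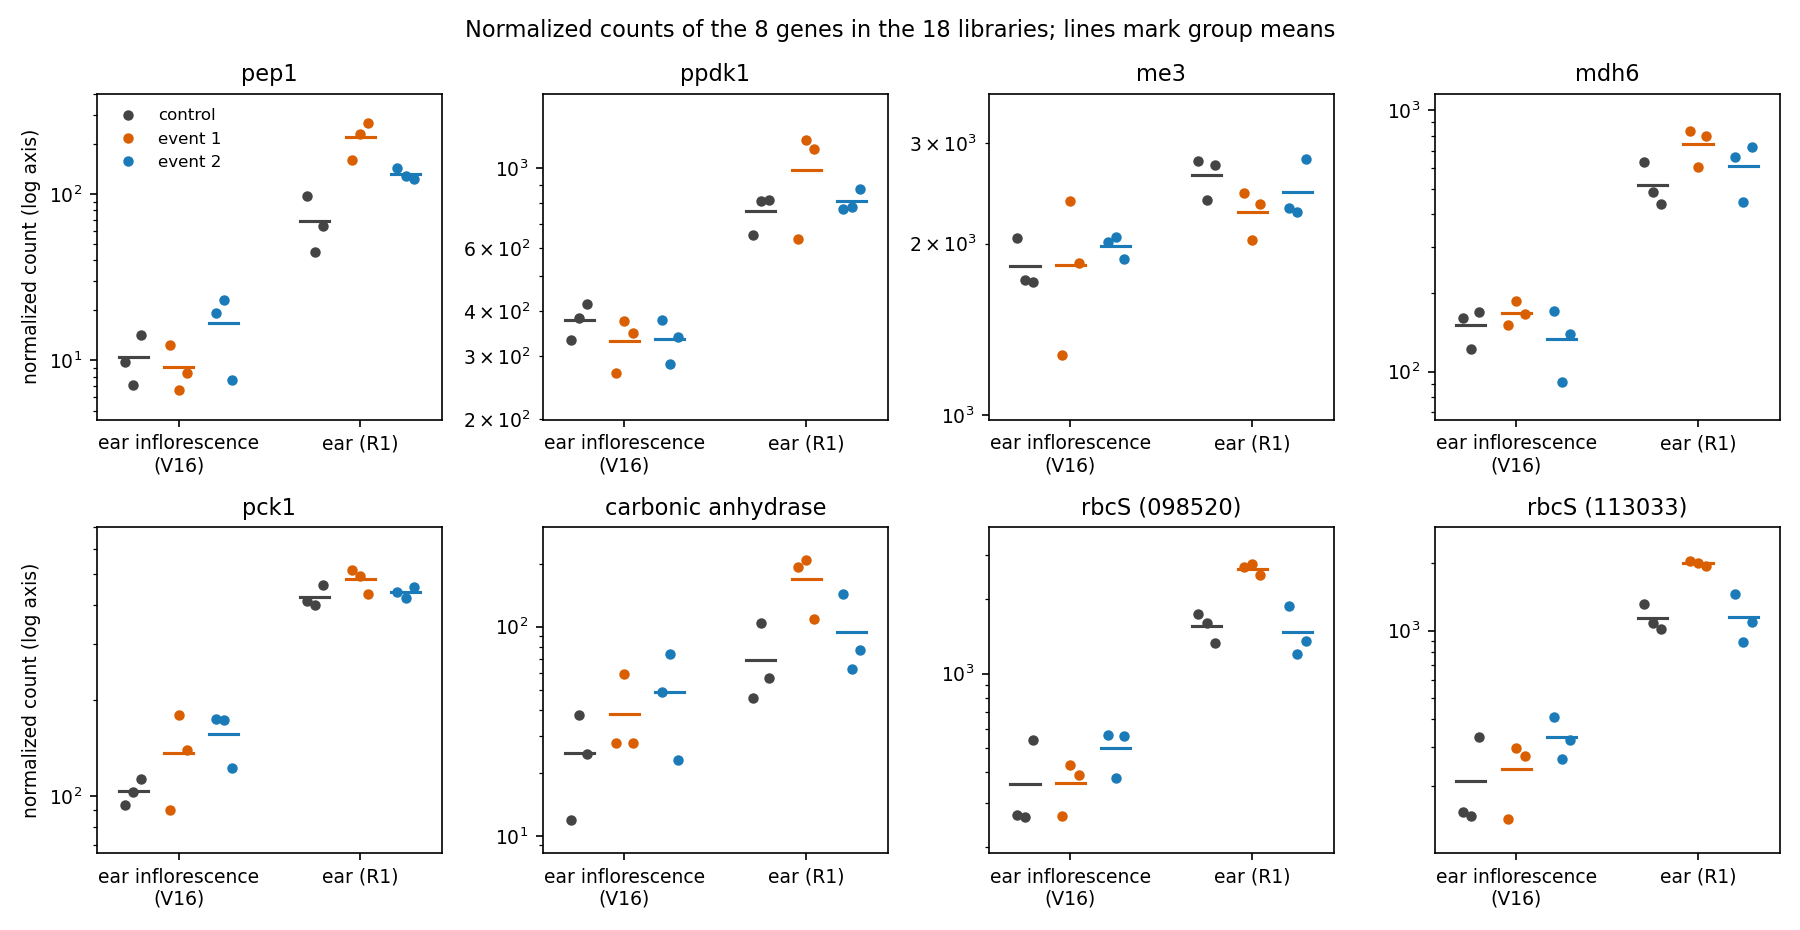
Normalized counts (log axis, a separate scale for each gene) of the 8 genes in each of the 18 libraries, by tissue and genotype; each point is 1 library and each line a group mean of 3 libraries. In 6 panels the 9 ear points all lie above the 9 ear inflorescence points, whereas those of me3 and carbonic anhydrase overlap.

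pep1 encodes the C4 form of PEP carboxylase, which adds bicarbonate to phosphoenolpyruvate to make oxaloacetate. Its normalized counts in the ear inflorescence were 9.81, 7.16 and 14.3 in control, 12.5, 6.63 and 8.46 in event 1 and 19.3, 23.1 and 7.67 in event 2. In the ear they were 97.2, 44.9 and 64.4 in control, 159, 230 and 267 in event 1 and 143, 129 and 123 in event 2. The tissues did not overlap, although the ear inflorescence values rested on only 7 to 21 reads a library, against 34 to 190 in the ear. The fold change of pep1 was 6.02 in control (log2 2.59, SE 0.37, adjusted p = 3.04e-05 with limma), 21.7 in event 1 (log2 4.44, adjusted p = 5.39e-08) and 8.17 in event 2 (log2 3.03, adjusted p = 8.53e-06).

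Carbonic anhydrase supplies the bicarbonate that PEP carboxylase uses. The normalized counts of GRMZM2G121878 ranged from 11.9 to 74.0 in the ear inflorescence, with a median of 27.8, and from 45.7 to 208 in the ear, with a median of 104. Only 6 of the 9 ear libraries lay above every ear inflorescence library, and the values differed by a factor of up to 6.21 within the ear inflorescence. The gene was called over the genotypes together (fold change 2.93, log2 1.55, SE 0.27, adjusted p = 7.08e-05) but by limma in no single genotype, where the raw p exceeded 0.0001. The log2 changes there were 1.49 in control, 2.16 in event 1 and 1.00 in event 2, each with an SE of 0.47. Their limma adjusted p-values were 0.0171, 0.00118 and 0.136 in that order. Other fits did call it within genotypes. edgeR called it in control (adjusted p = 7.97e-06, where 10.7% of identifiers were called higher) and in event 1 (adjusted p = 6.32e-12, against 11.2%), DESeq2 called it in event 1 alone (adjusted p = 4.1e-05, against 9.99%), and so did limma with the replicate number as a block. The call over the genotypes was lost when 1 of 12 of the 18 libraries was left out, with log2 values between 1.40 and 1.58. These were replicates 1 and 3 of each ear inflorescence group, replicates 2 and 3 of control ear, 1 and 2 of event 1 ear and 1 and 3 of event 2 ear. It was also lost without both libraries that stood apart (log2 1.57).

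mdh6 encodes NADP-malate dehydrogenase, which reduces oxaloacetate to malate in mesophyll chloroplasts. Its normalized counts were between 91.4 and 186 in the ear inflorescence, with a median of 161, and between 437 and 832 in the ear, with a median of 633. The lowest ear library was 2.35 times the highest ear inflorescence library. The fold change was 3.41 in the control, 4.40 in event 1 plants and 4.59 in event 2 plants, with adjusted p-values of 9.89e-06, 8.28e-07 and 1.21e-06.

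Of the decarboxylase genes, pck1 was called in each genotype and me3 in none. me3 encodes the plastid NADP-malic enzyme that releases carbon dioxide from malate in the bundle sheath. It ranged from 1277 to 2371 normalized counts in the ear inflorescence and from 2027 to 2820 in the ear, so the tissues overlapped. Its log2 difference was 0.40 over the genotypes (SE 0.10, 95% confidence interval 0.18 to 0.62), with a raw p of 0.00125 that missed the threshold and an adjusted p of 0.00331 in limma. Over 27 alternative settings this difference was between 0.11 and 0.47, and me3 was called in 2 of them. pck1 encodes PEP carboxykinase, a cytosolic decarboxylase of the bundle sheath that also serves gluconeogenesis. It ranged from 90.1 to 180 in the ear inflorescence and from 399 to 515 in the ear, where the highest library was 1.29 times the lowest, the narrowest ear range of the 8 genes. The fold change of pck1 was 4.08 in the control, 3.63 in event 1 plants and 2.81 in event 2 plants, with adjusted p-values of 5.68e-07, 9.23e-07 and 2.09e-05.

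Pyruvate, phosphate dikinase regenerates phosphoenolpyruvate from pyruvate. The ppdk1 locus is known to produce both the plastid C4 form and a cytosolic form from separate promoters, and the counts do not separate them. ppdk1 ranged from 269 to 420 normalized counts in the ear inflorescence and from 637 to 1197 in the ear, without overlap. Its fold change was 2.00 in the control, 2.90 in event 1 plants and 2.43 in event 2 plants, the smallest of the 6 genes called in each genotype. The control call was narrow, with a raw limma p of 9.71e-05 against the limit of 0.0001. It was lost under 10 of 15 alternatives, among them leaving out any 1 of the 6 control libraries, with log2 values between 0.91 and 1.11 throughout.

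**Figure D2:**
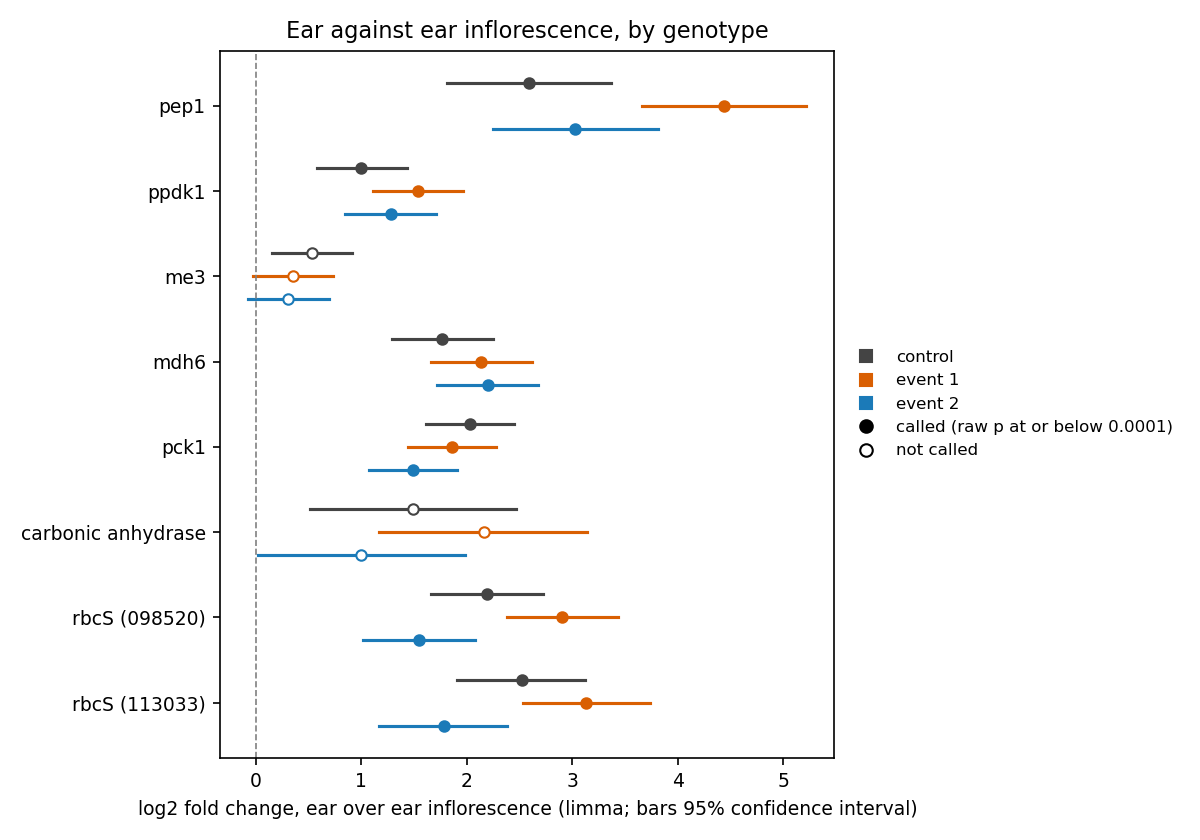
Log2 fold change of ear over ear inflorescence for the 8 genes in control, event 1 and event 2, from limma, with bars for the 95% confidence interval and filled points for genes called. Control values run from 0.53 for me3 to 2.59 for pep1, and the largest value of the plot is 4.44 for pep1 in event 1.

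The rbcS genes encode the small subunit that joins the plastid-encoded large subunit to form Rubisco, the enzyme that fixes carbon in the bundle sheath. GRMZM2G098520 had normalized counts of 268, 265 and 541 in control ear inflorescence, 265, 427 and 389 in event 1 and 563, 379 and 562 in event 2. In the ear it had 1732, 1601 and 1329 in control, 2680, 2775 and 2497 in event 1 and 1869, 1195 and 1355 in event 2. Every ear library was at least 2.12 times the highest ear inflorescence library. The fold change was 4.56 in the control, 7.47 in event 1 plants and 2.93 in event 2 plants, with adjusted p-values of 2.95e-06, 7.30e-08 and 0.000151. GRMZM2G113033 ranged from 143 to 409 in the ear inflorescence and from 888 to 2040 in the ear, again without overlap. Its fold change was 5.72 in the control, 8.77 in event 1 plants and 3.43 in event 2 plants, all called.

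The balance between the rbcS genes also differed between the tissues. Reads of GRMZM2G098520 divided by reads of GRMZM2G113033 gave 1.74, 1.80 and 1.63 in control ear inflorescence and 1.32, 1.49 and 1.30 in control ear. In event 1 the ratios were 1.85, 1.44 and 1.42 in the ear inflorescence and 1.31, 1.38 and 1.28 in the ear. In event 2 they were 1.38, 1.43 and 1.75 against 1.29, 1.35 and 1.23. The ear ratios lay below the ear inflorescence ratios in each genotype, though the control ear library at 1.49 lay above 4 ear inflorescence libraries of the events. The mean was 1.60 ± 0.19 (SD, n = 9) in the ear inflorescence and 1.33 ± 0.072 (SD, n = 9) in the ear. The log2 ratio was lower in the ear by 0.26 (two-sided exact permutation test over 48620 arrangements, p = 0.00062). The arrangements exchanged all 18 libraries without regard to genotype. A read that matched both genes could count towards each of them, so the ratio includes any shared reads.

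**Figure D3:**
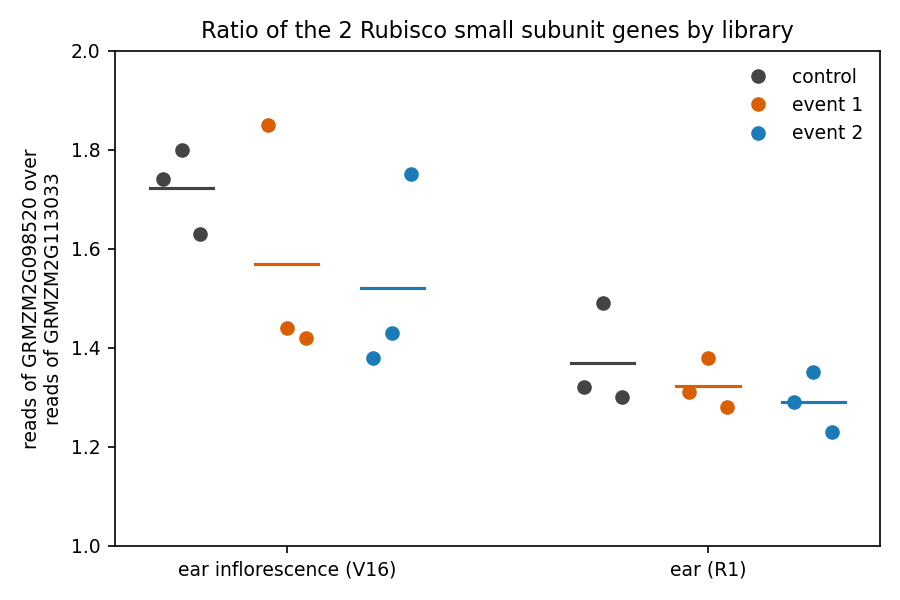
Reads of rbcS gene GRMZM2G098520 divided by reads of rbcS gene GRMZM2G113033 in each library (vertical axis from 1 to 2, no unit), by tissue and genotype; points are libraries and lines are means of 3. The ear ratios run from 1.23 to 1.49 and the ear inflorescence ratios from 1.38 to 1.85.

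Relatives of these enzymes were examined to see whether the tissue difference was shared by other isoforms. Of 6 other isoforms of C4 cycle enzymes, 4 were called higher in the ear over the genotypes and 1 lower. Of all identifiers 14.3% were called higher and 14.7% lower, or 25% and 25.5% of those with a mean of at least 10. pep4 and pep7, further PEP carboxylase genes, changed by 0.94 and 0.74 on the log2 scale (SE 0.09 for each), and pck2 changed by 1.82 and me4 by 1.37. me2, a second malic enzyme gene, had a log2 difference of 0.62 (SE 0.15) and was not called. PPDK2 went the other way and fell by 1.94 (SE 0.12, adjusted p = 1.39e-10 in limma). Reads of ppdk1 over reads of PPDK2 were between 0.179 and 0.484 in the ear inflorescence and between 2.13 and 4.47 in the ear. PPDK2, pck2 and me4 are named here after their values were seen.

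Reads shared between close relatives limit what can be said of a single gene. pck1 and pck2 moved nearly in step, with pck1 reads between 0.588 and 0.809 times those of pck2 in all libraries. Reads of me2 were between 15.9 and 20.9 times those of me3, and reads of pep7 between 25.8 and 726 times those of pep1. Since a read could count towards several transcripts, the values of pep1, me3, pck1 and the rbcS genes are uncertain to the extent that such reads contribute to them. None of the 8 genes had the same read counts as another identifier in every library.

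Regulators and partners of the pathway were also tested over the genotypes, where the background was 14.3% of all identifiers called higher, or 25% of those with a mean of 10 or more. Of 5 regulators of PEP carboxylase and PPDK, 4 were called higher, among them the PEP carboxylase kinase genes PPCK1 (log2 1.53), PPCK4 (1.35) and PPCK2 (0.58), and the dikinase regulator pdrp1 (1.27). Of 4 plastid envelope carriers, the dicarboxylate transporter genes pDCT2 (1.07) and pDCT1 (0.58) were called higher, and the phosphoenolpyruvate translocator genes ppt1 (0.45) and ppt2 (0.16) were not called. Rubisco activase, which keeps Rubisco in its active form, was represented by rca1 (3.18) and rca3 (2.69), and both were called higher along with gpa1 (1.43), a plastid glyceraldehyde-3-phosphate dehydrogenase gene. The mean of rca3 was only 8.93 normalized counts, so it is not among the identifiers with a mean of 10 or more.

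Genes of the light reactions were called higher too, over the genotypes and against the same 14.3%. Of 8 genes for chlorophyll a/b-binding proteins 7 were called higher. The 3 of the list with the largest mean normalized count were lhcb3 (log2 2.01), cp29 (1.39) and lhcb7 (1.70). All 6 photosystem subunit genes were called higher, including PSBQ1 (0.60), psa6 (1.20) and psah1 (2.44), as were all 6 genes for ferredoxins and ferredoxin-NADP reductase, including fdx3 (1.35), fnr1 (0.69) and FDX6 (0.89). Within single genotypes fewer were called: of the 8 chlorophyll-binding genes 5 in control, 7 in event 1 and 1 in event 2. Of these and the photosystem genes together, 9, 12 and 3 of 14 were called in that order. The background of all identifiers called higher was 7.16%, 8.46% and 5.18%, or 13.3%, 15.2% and 9.52% of those with a mean of 10 or more. oy1, which encodes a subunit of magnesium chelatase in chlorophyll synthesis, was called higher (0.89), and the chloroplast regulator glk1 had a log2 difference of -1.25 that was not called (adjusted p = 0.0208 in limma). Summed over the 8 chlorophyll-binding genes, the normalized counts were between 6911 and 17855 in the ear inflorescence and between 36776 and 55187 in the ear, with none of the 8 at 0 throughout a group. The part of green tissue in the difference of the C4 and rbcS genes was not tested, and more cells of a green type cannot be told apart from more RNA per cell in these bulk samples. Of the meristem markers, kn1 (-0.45), fea2 (0.10) and lg3 (-0.15) were not called, and zmm16 (-0.08) was not called among the floral markers, where zmm6 was at 0.85 and ZAG1 at 0.63.

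**Figure D4:**
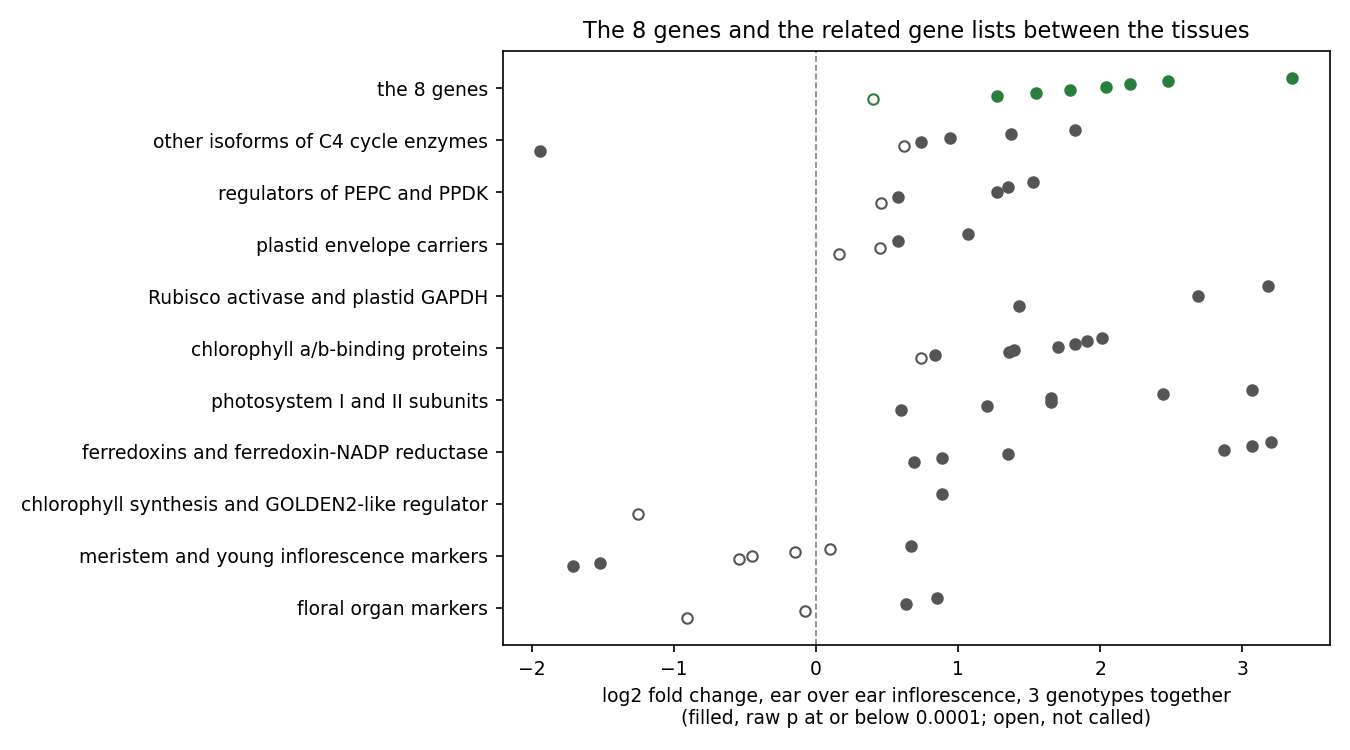
Log2 fold change of ear over ear inflorescence, with the 3 genotypes together, for each of the 8 genes and each gene of 10 related lists; each point is 1 gene, filled where called. The values of the 8 genes run from 0.40 to 3.35 and PPDK2, at -1.94, is the lowest point shown; ra1 is left out because it was at 0 in all ear libraries.

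For each gene the identifiers with the most similar pattern were found by the root mean square (RMS) difference of mean-centred log2 values over the 18 libraries, among the 39715 identifiers with a mean of at least 10. The rbcS genes were each other's nearest, at an RMS difference of 0.18. The second nearest to GRMZM2G098520 was ris2 (GRMZM2G162748, 0.22), a gene of the Rieske iron-sulfur protein family, and the second nearest to GRMZM2G113033 was GRMZM2G029048 (0.243). pck1 was nearest to pck2 (0.126) and then to GRMZM2G001639 (0.155). No other member of the 8 was among the 2 nearest of the remaining genes. me3 was nearest to GRMZM2G434518 (0.0832) and GRMZM2G130905 (0.0905), ppdk1 to GRMZM2G172529 (0.183) and GRMZM2G021921 (0.204), and mdh6 to GRMZM2G116514 (0.202) and GRMZM2G012167 (0.204). The genes with the most spread had looser neighbours, namely GRMZM2G119067 (0.414) and GRMZM2G377647 (0.438) for pep1, and GRMZM2G178734 (0.453) and GRMZM2G159500 (0.47) for carbonic anhydrase.

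The second comparison asked whether ATHB17Δ113 plants differed from control plants of the same tissue. None of the 8 genes was called in limma for either event in either tissue, where 0.128% of all identifiers were called for event 1 in the ear, 0.0444% for event 2 in the ear, 0.0574% for event 1 and 0.0666% for event 2 in the ear inflorescence. At an unadjusted p under 0.05, 5 of the 8 were higher in event 1 ear, against 3.74% of all identifiers, and 1 in event 2 ear, against 2.32%. In the ear inflorescence 0 were higher in event 1, against 1.34%, and 3 in event 2, against 1.94%, and 0 were lower in any of the 4 comparisons. edgeR called 2 and DESeq2 called 1 of the 8 for event 1 in the ear, and both called 0 in the other 3 comparisons. With the events pooled limma called none in either tissue, against 0.0653% of identifiers in the ear inflorescence and 0.0705% in the ear, with 1 and 2 of the 8 higher at an unadjusted p under 0.05, against 1.09% and 2.81%. Both events were compared with the same control libraries.

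In event 1 ear, pep1, carbonic anhydrase and both rbcS genes were above control without overlap, 4 of 8 against 8.15% of all identifiers. For pep1 the lowest event 1 ear library, at 159, was above the highest control ear library, at 97.2, and the log2 difference was 1.69 (SE 0.37, 95% confidence interval 0.91 to 2.48, adjusted p = 0.114 in limma). The raw p of 0.00024 missed the threshold. Over 15 alternative settings the log2 difference of pep1 was between 1.42 and 1.97. With read-count models it was called, by edgeR (log2 1.65, adjusted p = 1.45e-06) and by DESeq2 (log2 1.66, adjusted p = 0.0015), where 0.448% and 0.155% of identifiers were called higher.

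The carbonic anhydrase gene had 45.7, 104 and 57.0 normalized counts in control ear and 194, 208 and 108 in event 1 ear. The lowest event 1 library thus lay just above the highest control library, and the log2 difference was 1.32 (SE 0.47, adjusted p = 0.465 in limma). edgeR called it (adjusted p = 0.00133) and DESeq2 did not (adjusted p = 0.479). For rbcS GRMZM2G098520 the log2 difference was 0.78 (SE 0.25, 95% confidence interval 0.25 to 1.30, adjusted p = 0.391), and all event 1 ear libraries, from 2497 upward, were above the control maximum of 1732. For GRMZM2G113033 the event 1 ear libraries had 2040, 2016 and 1947 against 1312, 1076 and 1019 in control, a log2 difference of 0.82 (SE 0.29, adjusted p = 0.450 in limma). Neither rbcS gene was called against control by edgeR, where their adjusted p-values were 0.0382 and 0.0213, or by DESeq2, where they were 0.406 and 0.514.

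The other genes of the cycle differed less in event 1 ear. mdh6 had a log2 difference of 0.52 (95% confidence interval 0.05 to 1.00), ppdk1 of 0.34 (-0.09 to 0.76), pck1 of 0.18 (-0.24 to 0.60) and me3 of -0.22 (-0.60 to 0.16). For each of these the libraries of event 1 and control overlapped. The ear libraries of event 1 were also the highest in the light-harvesting list, where the summed normalized counts of the 8 chlorophyll-binding genes were 50743 to 55187, against 36776 to 45902 in control and 37780 to 44459 in event 2. The summed counts of the 6 photosystem genes were 4493 to 4999 in event 1 ear, 3688 to 4252 in control and 3097 to 4029 in event 2, and those of rca1, rca3 and gpa1 were 1477 to 1653 in event 1, 946 to 1084 in control and 1008 to 1335 in event 2. The sums of the 5 regulators of PEP carboxylase and PPDK were instead lowest in event 1 ear, at 5691 to 5979, against 6330 to 7576 in control and 6101 to 7570 in event 2. No gene of these lists was at 0 throughout an ear group. In the 10 lists none of the 52 genes was called by limma in event 1 ear, against 0.128% of all identifiers. At an unadjusted p under 0.05, 4 of the 52 were higher, against 3.74% of all identifiers. The part of green tissue in the event 1 values was not tested.

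**Figure D5:**
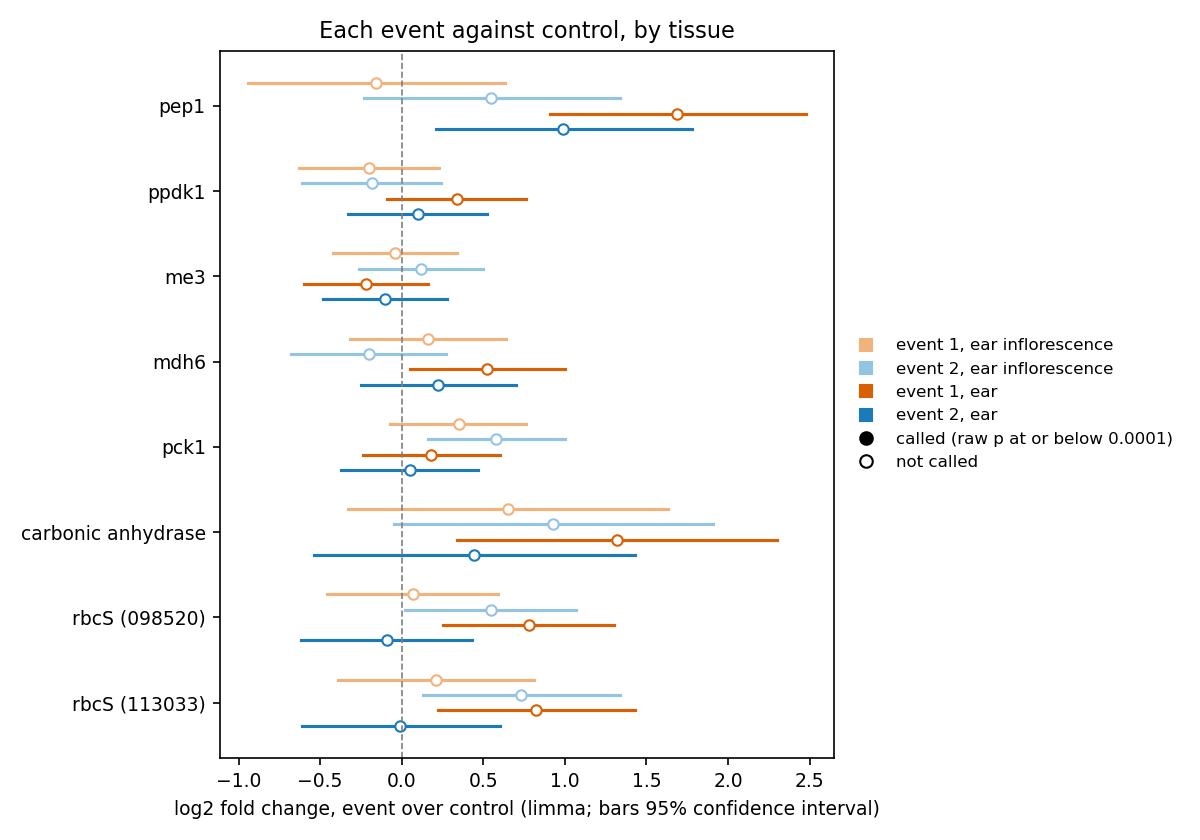
Log2 fold change of each event over control in each tissue for the 8 genes, from limma, with bars for the 95% confidence interval; all points are open because no gene was called. The values furthest from 0 are those of pep1 (1.69) and carbonic anhydrase (1.32) in event 1 ear.

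In event 2 ear, pep1 alone among the 8 lay above control without overlap, which held for 3.11% of all identifiers. Its 3 libraries were at 123 or higher, and the log2 difference was 0.99 (SE 0.37, 95% confidence interval 0.21 to 1.78, adjusted p = 1.00 in limma). Without event 2 ear replicate 2 and event 1 ear inflorescence replicate 1 the difference was 1.01. With the events pooled, all 6 event ear libraries of pep1 were above all 3 control libraries, as for 1.02% of identifiers, and the log2 difference was 1.34 (SE 0.32, adjusted p = 0.326 in limma). edgeR (adjusted p = 0.000137) and DESeq2 (adjusted p = 0.0274) called pep1 in that comparison, against 0.232% and 0.0575% of identifiers. The rbcS genes of event 2 ear did not stand above control, with log2 differences of -0.09 (95% confidence interval -0.62 to 0.43) for GRMZM2G098520 and -0.01 (-0.61 to 0.60) for GRMZM2G113033. Without the libraries that stood apart these became 0.04 and 0.16. The remaining genes of event 2 ear were between -0.10 for me3 and 0.44 for carbonic anhydrase.

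The events were also set directly against each other. In the ear, rbcS GRMZM2G098520 was higher in event 1 than in event 2 by 0.87 on the log2 scale (SE 0.25, adjusted p = 0.634 in limma) and GRMZM2G113033 by 0.83 (SE 0.29, adjusted p = 0.787). In 3 of the 8 genes, both rbcS genes and pep1, all event 1 libraries lay above all event 2 libraries, a separation that 5.86% of all identifiers showed. Without the libraries that stood apart the rbcS differences were 0.73 and 0.66. None of the 8 was called in this comparison by limma, against 0.0548% of identifiers, and 2 were higher at an unadjusted p under 0.05, against 2.57%. edgeR called GRMZM2G098520 (adjusted p = 0.0328), against 0.144% of identifiers called higher, and DESeq2 called 0. pep1 differed by 0.70 (95% confidence interval -0.08 to 1.49) and carbonic anhydrase by 0.88 (-0.11 to 1.86).

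In the ear inflorescence no gene was called for either event. The median log2 difference of the 8 genes was 0.55 in event 2, and the largest was that of carbonic anhydrase at 0.93 (SE 0.47, 95% confidence interval -0.05 to 1.91). pck1 in event 2 was above control without overlap, at 175, 173 and 122 against 93.9, 103 and 113, which held for 5.26% of identifiers. Its log2 difference was 0.58 (SE 0.20, adjusted p = 0.838 in limma). The rbcS genes of event 2 overlapped with control, with log2 differences of 0.55 for GRMZM2G098520 and 0.73 for GRMZM2G113033, and only 1 control library, at 541 for the first and 332 for the second, lay within the event 2 range. The 8 differences of event 1 from control ran from -0.20 for ppdk1 to 0.65 for carbonic anhydrase, and every one of their 95% confidence intervals included 0. pep1 in event 1 ear inflorescence had a log2 difference of -0.16 (-0.94 to 0.63). Between the events in the ear inflorescence none of the 8 was called by limma, edgeR or DESeq2, against 0.064% of identifiers in limma, and 0 had an unadjusted p under 0.05, where 2.39% of identifiers were higher in event 1 at that level.

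Whether an event's difference from control depended on the tissue was tested as an interaction. For event 1 the largest value was that of pep1, 1.85 on the log2 scale (SE 0.53, 95% confidence interval 0.74 to 2.96, adjusted p = 0.704 in limma), and it was the only one of the 8 with an unadjusted p under 0.05, a level that 2.43% of all identifiers reached with a positive value. None of the 8 was called by limma, against 0.0196% of identifiers, and edgeR and DESeq2 called 0. For event 2 the values ran from -0.74 for GRMZM2G113033 to 0.44 for pep1, with 0 called by the 3 tools, 0 at an unadjusted p under 0.05 and a background in limma of 0.0117% for calls and of 3.28% for positive values at an unadjusted p under 0.05.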

How the data were processed

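Total RNA of 18 libraries was prepared with a poly(A) kit that does not mark strand and sequenced in reads of 50 bases. Per the labels and the methods, the authors mapped the reads with Bowtie 0.12.8 to the B73 maize transcriptome (version 5a), allowing 2 mismatches in a seed of 28 bases. They ignored reads that matched more than 10 transcripts and assigned the others to all their matches. The deposited values are the resulting signal, read counts scaled over all samples with DESeq, and the authors tested them with SAS Proc GLIMMIX. All 18 samples were used, and 0 sample columns went unused.

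Low values were whole multiples of 1 factor per library to within the rounding of the table (0.0051), with 433951 of 433951 whole. Over all values the share was between 99.9948% and 100% per library. Each match therefore appears to count as 1 whole read. limma 3.58.1 (R 4.3.3) was fitted to log2(normalized count + 1) of 76612 identifiers with 6 group means, moderated variances and a trend on the mean. The main test was tried on simulated counts with known changes in event 1 ear. These had the same spread setting for all identifiers and no tissue difference, so they do not measure the error rate of the calls given here. Alternatives were a pseudocount of 0.1, a minimum mean of 10, adjusted p under 0.05, only the samples compared, a replicate block, quantile normalization, no moderation, edgeR 4.0.16 and DESeq2 1.42.0 on the recovered reads, each library left out in turn, and both libraries that stood apart left out. 3 samples against 3 cannot go below p = 0.1 in an exact permutation test.

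The 8 genes and the lists were chosen with earlier results of these data known. The text names all 8, the 3 identifiers with the largest mean in each list, and the 2 nearest identifiers to each gene where its mean was 10 or more; others are given where a count of 5 or fewer turned on them. Lists were matched by symbol to synonyms of RefSeq genes (assembly Zm-B73-REFERENCE-NAM-5.0, used for names only), which matched 18629 identifiers, 513 of them to more than 1 gene. The lists had to be narrowed to genes with a symbol there, and gn1, zfl2 and zmm1 were not matched. 1 gene of the meristem marker list is not reported here. Figures were drawn with Python 3.11.15, pandas 2.3.3, numpy 2.4.6 and matplotlib 3.10.9.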

Additional observations from a re-analysis of the deposited data

How the results depend on the processing

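The number of the 8 genes called moved by more than 1.5 times in few settings. With only the samples compared, the tissue comparison called 1 in control, 3 in event 1 and 0 in event 2. edgeR called 2 and DESeq2 called 1 for event 1 against control in ear, each called 1 for both events against control in ear, and edgeR called 1 for event 1 against event 2 in ear. Of all identifiers, edgeR called 0.448% and DESeq2 0.155% higher in the first of these comparisons. The shares were 0.232% and 0.0575% in the second, and 0.144% for edgeR in the third. Leaving out 1 library at a time gave 5 to 5 in control, 6 to 6 in event 1, 3 to 6 in event 2 and 6 to 8 over the genotypes, and 0 to 0 in the other comparisons. Replicate numbers did not pair the samples: of 27 same-numbered pairs, 5 correlated above 0.1 (range -0.19 to 0.25) and 12 were best with their own number. With the replicate block, 6, 7, 6 and 7 genes were called between the tissues in control, event 1, event 2 and over the genotypes, and 0 in each event comparison. The shares of all identifiers called with the block, with only the samples compared and with 1 library left out are not given here. The counts from those settings therefore have no background beside them.

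Directions turned only in differences between genotypes that were not called. In event 1 against control in ear inflorescence, me3 was 0.00 with DESeq2 and 0.20 without both libraries that stood apart, and rbcS GRMZM2G098520 was -0.01 with edgeR. In event 2 against control in ear, GRMZM2G098520 was 0.04 and GRMZM2G113033 was 0.16 without both libraries, and the latter was 0.01 with quantile normalization, edgeR and DESeq2. For both events against control in ear inflorescence, mdh6 was 0.00 with quantile normalization and 0.01 without both libraries. Between the events in ear inflorescence, ppdk1 was 0.12, me3 0.08 and pck1 0.03 without both libraries. Leaving out 1 library gave these ranges where the sign turned. Event 1 against control in ear inflorescence: pep1 -0.38 to 0.08, me3 -0.25 to 0.20, GRMZM2G098520 -0.11 to 0.40. Event 2 against control: mdh6 in ear inflorescence -0.40 to 0.05, and in ear ppdk1 -0.01 to 0.15, GRMZM2G098520 -0.28 to 0.04 and GRMZM2G113033 -0.19 to 0.16. Both events against control in ear inflorescence: pep1 -0.02 to 0.43, me3 -0.06 to 0.16, mdh6 -0.17 to 0.10. Event 1 against event 2 in ear inflorescence: ppdk1 -0.13 to 0.12, me3 -0.37 to 0.08, pck1 -0.46 to 0.03, carbonic anhydrase -0.73 to 0.10. Difference of an event's effect between tissues: pck1 -0.44 to 0.06 and me3 -0.42 to 0.03 for event 1, pep1 -0.01 to 0.73 for event 2. The causes were not tested. Of the single-gene values under the other settings, 1039 kept direction and call, 14 gained a call and 22 lost one, and with 1 library left out 854 kept both, 1 gained a call and 28 lost one. Depth limits pep1 most, with as few as 7 reads in ear inflorescence.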
